A study of Mus musculus with 8 samples.

Results

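Small nucleolar RNAs (snoRNAs) were the 214 rows that the authors' gene table of mouse liver types as snoRNA, 1.35% of its 15864 genes. Members were taken by that type alone, without regard to their values, and 166 of them passed the filter on low counts that the tests used, beside 14664 genes in all. By symbol, 39 begin with Snord, 35 with Snora, 9 with Scarna, 3 with Rnu3, 5 with Mir and 121 carry a Gm placeholder. From the symbol, the GENCODE type or the box motif, 103 rows were sorted into H/ACA snoRNAs, 79 into C/D snoRNAs and 19 into small Cajal body RNAs (scaRNAs), and 13 stayed unclassed, 12 with neither motif and 1, Gm25820, with no sequence to search (all 13 are called no motif in the plots).

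RNA was taken from liver of chow-fed mice in 3 control libraries, labelled WT, and 5 knockout libraries, labelled Alb-cre Mfrn1-/- Mfrn2 -/-. Alb-cre drives Cre recombinase in hepatocytes, and the mitoferrins are mitochondrial iron importers, so the other cells of the liver can keep the genes in the knockout samples. The series text calls the groups age-matched; it does not say whether the controls carried Cre or floxed alleles. Ribosomal RNA was removed and the rest was sequenced from a stranded total RNA kit, which keeps RNAs with no poly(A) tail. Levels are given in CPM, counts per M (mega) of the TMM-scaled library total, and the groups were tested against each other in edgeR (quasi-likelihood test, Benjamini-Hochberg adjustment over all tested genes). Nothing in the labels says whether the samples of a group came from separate animals, so a p-value measures only the spread between these libraries.

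snoRNAs guide chemical changes of other RNAs inside small protein complexes. C/D snoRNAs direct 2'-O-methylation through fibrillarin, H/ACA snoRNAs direct pseudouridylation through dyskerin, and scaRNAs do the same for spliceosomal snRNAs in Cajal bodies. A few, such as the Rnu3, Snord118, Snord13, Snord14 and Snora73 families, act in the cutting or modification of pre-ribosomal RNA. Most vertebrate snoRNAs are trimmed from introns of host genes, many of which code for ribosomal proteins or are non-coding transcripts of the Snhg family.

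The 10 sequences below belong to the members on which the results turn, and are read from the GENCODE M21 transcripts (GRCm38, the same assembly as mm10), 5′ to 3′ on the RNA's own strand, written as DNA. Capitals mark the first TGATG (C box letters) and the last CTGA (D box letters) in C/D snoRNAs, and the last ACA within the last 8 bases in H/ACA snoRNAs. Snora81 has no ACA there and is placed by its symbol. In Snora23 an earlier ACA overlaps the marked one and has 3 bases after it, as the marked ACA of the other H/ACA sequences has. The first 3 were among the members that differed most between libraries, the Snora73 pair was among the steadiest, Rnu3a and Snord118 serve pre-rRNA processing, Gm25791 had groups that did not overlap, and the last 2 share the host Gas5.
Snora81 (H/ACA, chr16:23110756-23110933, plus strand): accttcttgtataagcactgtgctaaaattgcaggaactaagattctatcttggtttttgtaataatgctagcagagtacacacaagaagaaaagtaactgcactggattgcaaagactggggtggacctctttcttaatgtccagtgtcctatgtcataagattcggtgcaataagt
Snora23 (H/ACA, chr7:110046364-110046547, plus strand): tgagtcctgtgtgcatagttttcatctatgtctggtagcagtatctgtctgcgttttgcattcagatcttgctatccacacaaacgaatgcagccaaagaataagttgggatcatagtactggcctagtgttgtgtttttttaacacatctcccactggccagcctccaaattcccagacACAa
Gm26493 (H/ACA, chr8:95746060-95746195, minus strand): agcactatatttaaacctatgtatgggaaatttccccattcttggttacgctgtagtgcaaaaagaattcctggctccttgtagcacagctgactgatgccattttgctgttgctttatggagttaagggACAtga
Snora73a (H/ACA, chr4:132352775-132352979, minus strand): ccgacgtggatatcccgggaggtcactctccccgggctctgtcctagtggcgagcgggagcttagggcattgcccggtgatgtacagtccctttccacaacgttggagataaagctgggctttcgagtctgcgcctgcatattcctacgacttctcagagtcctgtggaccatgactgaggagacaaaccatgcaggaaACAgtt
Snora73b (H/ACA, chr4:132352322-132352526, minus strand): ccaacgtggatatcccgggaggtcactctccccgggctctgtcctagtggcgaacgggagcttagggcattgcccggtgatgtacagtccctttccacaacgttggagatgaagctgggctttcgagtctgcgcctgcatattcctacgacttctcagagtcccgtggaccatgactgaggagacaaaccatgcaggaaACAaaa
Rnu3a (C/D, chr10:40258467-40258680, plus strand): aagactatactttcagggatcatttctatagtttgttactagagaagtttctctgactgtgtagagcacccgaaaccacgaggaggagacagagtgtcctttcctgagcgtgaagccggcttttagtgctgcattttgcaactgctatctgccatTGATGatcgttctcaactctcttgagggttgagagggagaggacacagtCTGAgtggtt
Snord118 (C/D, chr11:69073427-69073561, plus strand): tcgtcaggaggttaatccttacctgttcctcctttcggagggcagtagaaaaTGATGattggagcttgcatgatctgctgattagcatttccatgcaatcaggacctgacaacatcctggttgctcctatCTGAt
Gm25791 (H/ACA, chr9:15314845-15314981, plus strand): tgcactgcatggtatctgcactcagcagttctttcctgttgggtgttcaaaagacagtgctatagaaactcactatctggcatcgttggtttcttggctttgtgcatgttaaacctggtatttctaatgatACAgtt
Snord47 (C/D, chr1:161038082-161038158, plus strand): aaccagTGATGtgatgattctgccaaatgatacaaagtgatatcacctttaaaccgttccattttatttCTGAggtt
Gm23436 (C/D, chr1:161036984-161037049, plus strand): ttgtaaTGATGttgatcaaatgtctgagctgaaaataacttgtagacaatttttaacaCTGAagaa

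Box motifs matched the symbols in most rows with a sequence. A C box within the first 25 bases together with a D box within the last 18 was found in 87.2% of 39 Snord rows and in none of 35 Snora rows. An ACA in the last 8 bases was found in 94.3% of Snora rows and in 10.3% of Snord rows. Among all 213 members with a sequence, 36.2% held the C/D pair and 57.7% the ACA, against 0% and 4.55% of 44 snRNA rows and 0.694% and 13.2% of 144 miRNA rows. Each search covered the RNA's own strand, and a row may hold both.

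Libraries held between 24.6 and 43.1 M counts, and 1 count stood for 0.0227 to 0.0404 CPM. The targeted genes went with the labels: Slc25a28 (mitoferrin 2) was at 17.1 ± 0.851 CPM in control and 0.725 ± 0.111 in knockout (SD, n = 3 and 5), and Slc25a37 (mitoferrin 1) at 17.8 ± 5.06 and 8.32 ± 1.72. Slc25a28 passed in edgeR (adjusted p = 1.92e-07). Slc25a37 did not (adjusted p = 0.104 in edgeR), though its groups did not overlap. Hepatocyte markers summed to between 94260 and 98112 CPM in control and between 91617 and 103158 in knockout. In whole tissue, fewer cells of a type and less RNA per cell cannot be told apart.

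Libraries differed widely in their summed snoRNA level, and more within the control group than between the groups. Summed over all 214 rows, snoRNAs stood at 1713 CPM in control replicate 1, 1233 in control replicate 2 and 4179 in control replicate 3. The knockout libraries stood at 1931, 1320, 1610, 2078 and 1380 CPM. Control replicate 3 was therefore the highest library and control replicate 2 the lowest, and all 5 knockout libraries lay between them. Group means were 2375 ± 1581 CPM in control and 1664 ± 333 in knockout (SD, n = 3 and 5). Left without control replicate 3, the log2 ratio of the summed CPM, knockout over control, went from -0.51 to 0.19.

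Other small RNAs shared this order in part. snRNA rows summed to 258, 138 and 658 CPM in control replicates 1 to 3 and to between 215 and 406 in knockout, with the same highest and lowest library. Mitochondrial tRNA rows summed to 19.7, 10.5 and 114 CPM in control and to between 16.7 and 82.1 in knockout. miRNA rows ran from 1365 to 1755 CPM and were not highest in control replicate 3. Among nuclear retained RNAs, Rmrp was at 2455, 1736 and 3861 CPM in control and between 1849 and 2785 in knockout. Rpph1 was at 7627, 4697 and 11927 CPM in control and between 5687 and 9586 in knockout. Both had the highest and lowest library of the snoRNA sum, and Malat1, Neat1, Meg3, Rn7sk and Terc did not have both. Over the 8 libraries, 93 of 166 snoRNAs had a Pearson r above 0.5 with the log2 summed snRNA level, a description of points that share libraries and scaling. Whether small-RNA recovery or RNA quality set any snoRNA difference was not tested.

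**Figure D1:**
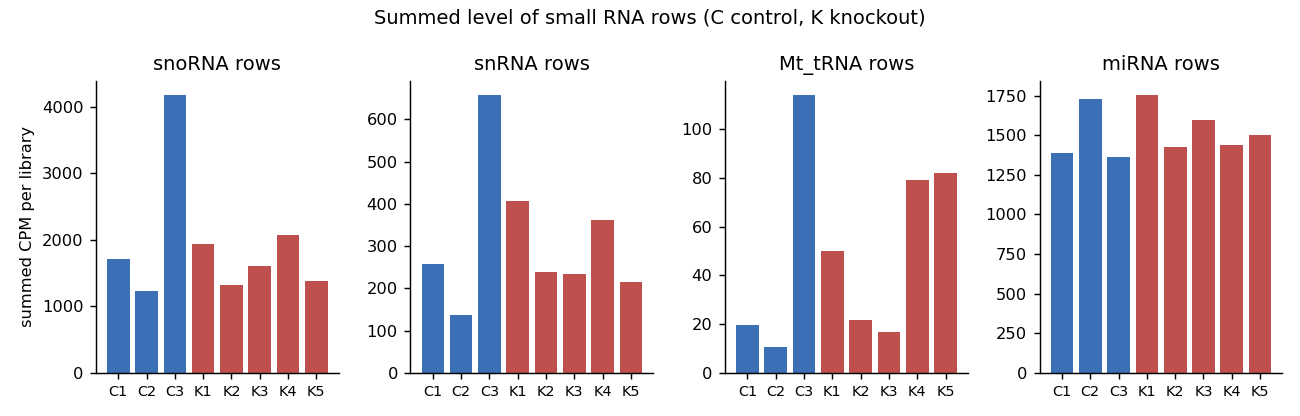
Summed CPM of each small RNA type (vertical axes, linear from 0) in the 3 control (C, blue) and 5 knockout (K, red) libraries, 1 bar per library. snoRNA rows reached 4179 CPM in C3 and 1233 in C2, snRNA and Mt_tRNA rows had the same highest and lowest libraries, and miRNA rows did not.

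No snoRNA passed the test between knockout and control. At an adjusted p of 0.05, edgeR called 0 of 166 snoRNAs, where it called 0.109% of all tested genes (16 of 14664). DESeq2 called 0 of 214, against 1.62% of genes, and the authors' deposited table has 0 of 214 past the same threshold, against 1.48%. By edgeR's unadjusted p under 0.05, 3 snoRNAs were higher in knockout (1.81%, where 5.67% of all genes were) and 3 were lower (1.81%, against 4.68%). Both shares were below the background.

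The median log2 fold change of the 166 snoRNAs was -0.22, with 124 below 0 and 42 above, beside -0.00 over all tested genes. It was -0.08 for snRNA rows, -0.12 for mitochondrial tRNA rows and 0.05 for miRNA rows. This lean towards lower values in knockout rested on 1 control library. Without control replicate 3, the same 166 snoRNAs had a median of 0.13, with 60 below 0 and 106 above, beside 0.01 over all genes. Of them, 67 went from a negative to a positive value and 3 the other way. edgeR then called 0 of 168 snoRNAs, against 0.0537% of genes, and at an unadjusted p under 0.05 there were 7 higher (4.17%, where 7.93% of all genes were) and 1 lower (0.595%, against 4.18%). Without control replicate 2, 45 of 178 snoRNAs were lower at that unadjusted level in place of 3, a share of 25.3% where 4.03% of all genes were, and 0 passed after adjustment.

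**Figure D2:**
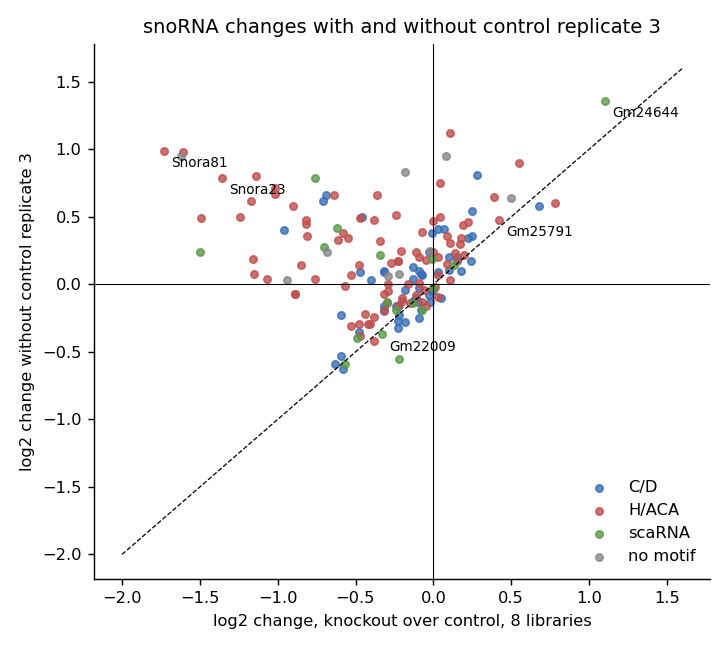
Each point is 1 of 166 tested snoRNAs, with the log2 fold change of knockout over control from all 8 libraries (horizontal) and without control replicate 3 (vertical), coloured by class; the dashed line marks equal values. Points lie on or above the line for most members, and Snora81 moved from -1.73 to 0.99, while Gm25791 and Gm22009 stayed near the line.

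Spread between libraries was wide for snoRNAs, set beside all tested genes without matching for level. Tested snoRNAs had a median of mean CPM of 1.13, and the part of counting noise in their spread was not tested. The median SD of log2 CPM over the 8 libraries was 0.47, against 0.21 for all tested genes. Without control replicate 3 it was 0.40 for snoRNAs. Over the 8 libraries it was 0.57 for 30 snRNA, 1.52 for 15 mitochondrial tRNA and 0.33 for 92 miRNA rows. Control replicate 3 was the highest library for 52.4% of tested snoRNAs and for 11.7% of all tested genes. Control replicate 2 was the lowest for 41.6% and 9.89%. Among tested snRNA, mitochondrial tRNA and miRNA rows, control replicate 3 was highest for 66.7%, 86.7% and 10.9%. Control replicate 2 was lowest for 43.3%, 73.3% and 6.52% of them. The pattern was thus not particular to snoRNAs. By class, control replicate 3 was highest for 34% of 53 C/D, 60.9% of 87 H/ACA and 47.1% of 17 scaRNA rows.

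Longer snoRNAs departed most. The log2 CPM of control replicate 3 minus the mean of the other libraries had a median of 0.16 over 42 rows of 50 to 99 bases, 0.69 over 100 rows of 100 to 149 bases and 1.41 over 24 rows of 150 bases or more. All 24 of the longest rows had a negative log2 fold change, with a median of -0.57. Deviations of log2 CPM were also taken from each row's own mean over the 8 libraries. In control replicate 2 their median was 0.15, -0.49 and -0.62 in these length classes, and in knockout replicate 5 it was -0.20, -0.21 and -0.37. Across the 166 members the excess in control replicate 3 had a Spearman rho of 0.37 with length, 0.17 with log2 mean CPM and -0.08 with GC content (165 rows for the last). These are descriptions, since the members share libraries and length goes with class and with level. From the shortest to the longest length class, the median of mean CPM was 0.459, 1.31 and 51.5. The prior count of 2 in log2 CPM also narrows the deviations of rows with few counts, so length and level were not separated. C/D rows had a median length of 79 bases and H/ACA rows 133.

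**Figure D3:**
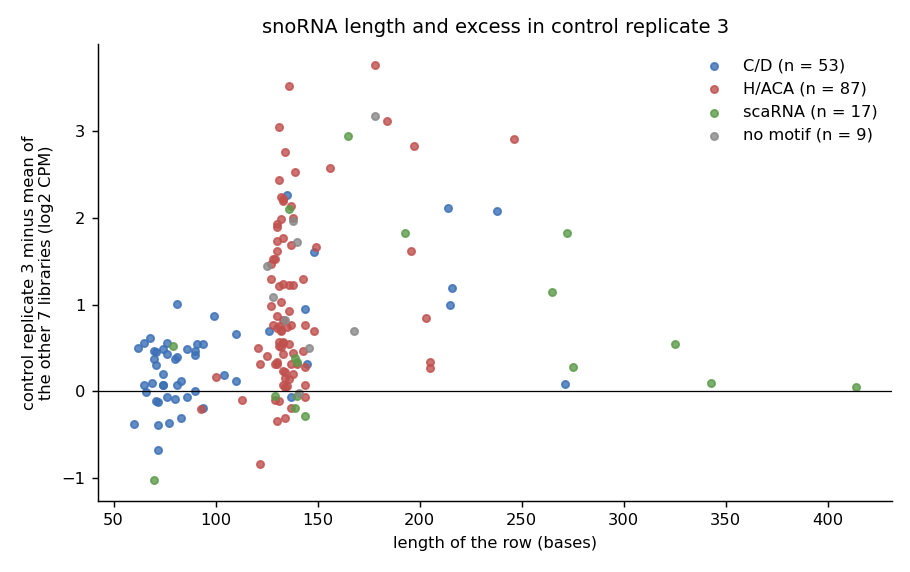
Length of each tested snoRNA row in bases (horizontal) against its log2 CPM in control replicate 3 minus the mean of the other libraries (vertical), coloured by class. Rows under 100 bases lie between -1.02 and 1.01, and the excess reaches 3.76 for Snora81 at 178 bases, while the 414-base Scarna2 is at 0.05.

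Levels were concentrated in a few members. Mean CPM ran from 0.0685 to 247 with a median of 0.728, 125 rows were under 1 CPM, and 29 reached 10 CPM. The 10 most abundant rows held 59.7% of the summed mean CPM. H/ACA rows took 42.6% of it, scaRNAs 31.7%, C/D rows 21.6% and rows with no motif 4.1%. These shares are not scaled by length, and how well short RNAs were recovered was not tested. Tested rows of 50 to 99 bases had a median of mean CPM of 0.459, and those of 150 bases or more 51.5. Per length, in the authors' FPKM, Gm25395 was highest at 907 ± 619 (SD over 8 libraries), followed by Snord17 at 810 ± 651, Snora73a at 644 ± 106 and Snora73b at 479 ± 56.9. The first pair overlapped within its spread.

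Among the C/D snoRNAs, Snord17, a methylation guide in an intron of the sorting nexin Snx5, was the most abundant. Its CPM was 132, 71.9 and 560 in control replicates 1 to 3 and 208, 119, 113, 216 and 122 in knockout replicates 1 to 5. Control replicate 3 stood alone at the top, control replicate 1 lay inside the knockout range and control replicate 2 below it. The log2 fold change was -0.71 ± 0.55 (SE; adjusted p = 0.686 in edgeR), and 0.62 without control replicate 3.

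Rnu3a codes for the mouse U3 snoRNA, which base-pairs with pre-rRNA for early cuts on the small-subunit side. It stood at 64.3, 28.4 and 257 CPM in control and at 111, 51, 62, 96.7 and 42.2 CPM in knockout. Control replicates 2 and 3 were the lowest and highest of all libraries. The log2 fold change was -0.69 ± 0.59 (adjusted p = 0.717 in edgeR), and 0.66 without control replicate 3. The other Rnu3 rows, Rnu3b1 and Rnu3b2, are 99.5% identical to each other, lie in an intron of Tex14 and peaked at 2.67 and 0.681 CPM, so their reads may be split between them.

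Snord118, the U8 snoRNA needed for the large-subunit rRNAs, was at 1.82, 1.16 and 8.54 CPM in control and at 2.98, 1.3, 1.82, 2.38 and 1.32 CPM in knockout. It had the same single high library and overlapping groups, with a log2 fold change of -0.96 ± 0.58 (adjusted p = 0.593 in edgeR). Further C/D rows with no host row varied little. Snord13, which guides acetylation of small-subunit rRNA, was at 1.71 ± 0.338 CPM in control and 1.6 ± 0.323 in knockout, and Snord104 at 4.89 ± 0.829 and 4.63 ± 1. The 3 U14 rows Snord14c, Snord14d and Snord14e, in exons of the Hspa8 row, had log2 fold changes of -0.00, -0.32 and 0.15, none of which passed the test; Snord14c and Snord14d are 97.7% identical.

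Of the H/ACA snoRNAs, Snora73a and Snora73b, copies of the U17 snoRNA that acts in small-subunit rRNA processing, were the most abundant and steady. Snora73a was at 155, 117 and 160 CPM in control and at 119, 104, 137, 152 and 113 CPM in knockout. Snora73b was at 108, 83 and 115 CPM in control and at 98.5, 90.5, 92, 106 and 91.2 CPM in knockout. Both overlapped between groups, with log2 fold changes of -0.20 ± 0.15 and -0.09 ± 0.12 (adjusted p = 0.668 and 0.811 in edgeR). Their sequences, printed above, are 96.6% identical, so reads could be shared between the rows.

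The other abundant H/ACA rows ranged far more widely. Snora23, in an intron of the nuclear import receptor Ipo7, was at 35.7, 12.8 and 271 CPM in control and at 72.5, 21.2, 40.2, 54.4 and 19.4 CPM in knockout. Gm24119, in an intron of the mitochondrial phosphate carrier Slc25a3, was at 60.1, 15.7 and 359 CPM in control and at 128, 31.3, 59, 78.8 and 32.1 CPM in knockout. In both, the highest and the lowest library were control replicates 3 and 2, and knockout replicates 1 and 4 were the next highest after control replicate 3. Log2 fold changes were -1.36 ± 0.80 and -1.14 ± 0.80 (adjusted p = 0.586 and 0.658 in edgeR), and 0.79 and 0.80 without control replicate 3. Snora74a, whose host row Snhg4 stayed between 0.63 and 1.13 CPM, was at 75.2, 51.9 and 224 CPM in control and at 85.4, 54.1, 83.5, 112 and 64.2 CPM in knockout, with overlapping groups (log2 fold change -0.55 ± 0.42, adjusted p = 0.681 in edgeR).

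Snora81, in an exon of the Eif4a2 row, had the widest range among members of at least 10 CPM. It was at 21.7, 3.81 and 225 CPM in control and at 54.3, 9.67, 17.4, 30.3 and 14.4 CPM in knockout. Its log2 fold change of -1.73 ± 0.98 did not pass (adjusted p = 0.565 in edgeR). Gm22519 on chromosome 15, 98.9% identical to Snora81, followed the same order of control libraries at 0.25, 0.0482 and 2.5 CPM, and reads could come from either copy. Gm26493, in an intron of the deadenylase scaffold Cnot1, was at 7.92, 2.55 and 84.2 CPM in control and at 21.3, 4.48, 8.61, 11.4 and 5.7 CPM in knockout.

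**Figure D4:**
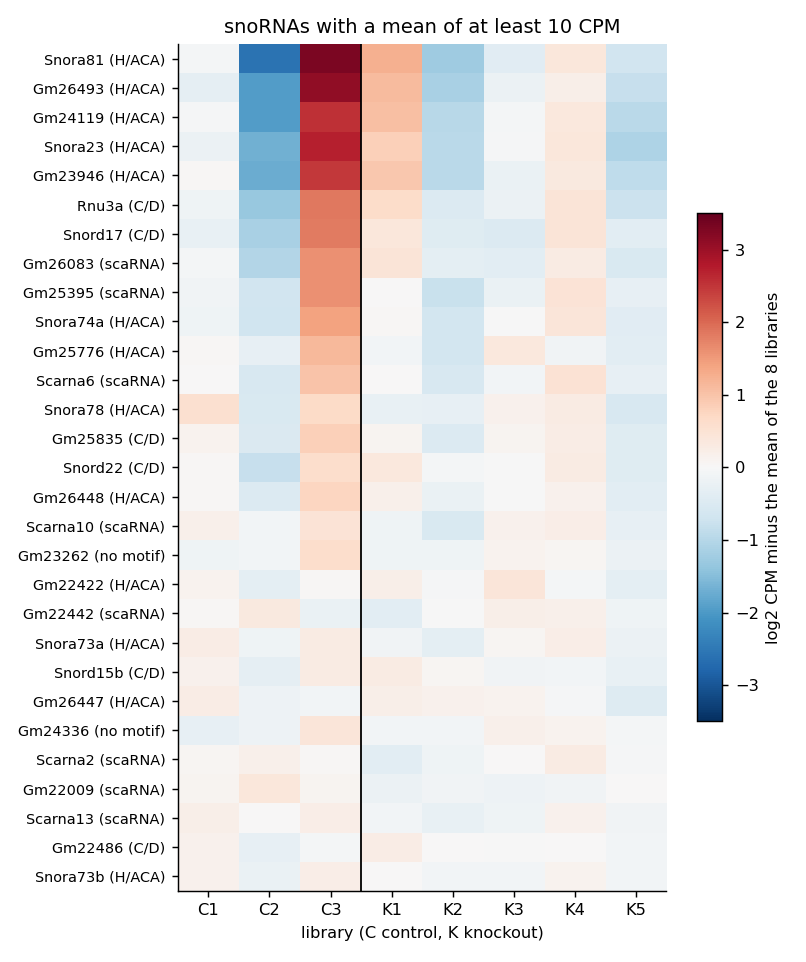
Log2 CPM minus the mean of the 8 libraries (colour) for the 29 snoRNAs with a mean of at least 10 CPM (rows, sorted by spread) in each control (C) and knockout (K) library. The upper rows are red in C3 and blue in C2, and rows such as Scarna2, Gm22009 and Snora73b near the bottom vary little.

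scaRNAs included both kinds of pattern. Gm25395 and Scarna6 lie in introns of the autophagy gene Atg16l1 on the same strand. Gm25395 was at 196, 136 and 645 CPM in control and at 215, 125, 184, 301 and 177 CPM in knockout, with a log2 fold change of -0.70 ± 0.45 (adjusted p = 0.621 in edgeR). Scarna6 was at 62.1, 41.4 and 123 CPM in control and at 61.7, 41.5, 57.6, 87.6 and 50.5 CPM in knockout. Their high library was again control replicate 3, followed by knockout replicate 4. Scarna2, which guides modification of the U2 snRNA and has no host row, was at 57.6, 62.9 and 57 CPM in control and at 42.8, 49.5, 56.1, 67.6 and 53.9 CPM in knockout, without that pattern. Scarna10, overlapping Ncapd2, had a log2 fold change of -0.30 ± 0.19 (adjusted p = 0.611 in edgeR), and Scarna9 one of -0.22 ± 0.36 (adjusted p = 0.875 in edgeR).

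The 6 snoRNAs at an unadjusted p under 0.05 included none of those with a high value in control replicate 3 described so far. Gm25791, an H/ACA row at chr9:15314845-15314981, was at 3.13, 3.52 and 3.66 CPM in control and at 4.93, 4.82, 4.34, 4.48 and 4.41 CPM in knockout. Every knockout library was above every control library, which held for 1 of 166 snoRNAs (0.602%) and for 3.2% of all tested genes. Its log2 fold change was 0.42 ± 0.12 (unadjusted p = 0.00541, adjusted p = 0.263 in edgeR). Gm22009, a 343-base scaRNA in an intron of the importin Kpna4, was at 63.4, 77.9 and 62.7 CPM in control and at 51.4, 53.9, 52.3, 53.6 and 59.6 CPM in knockout. Every knockout library was below every control library, again for 1 of 166 snoRNAs (0.602%), and for 3.74% of all genes. The log2 fold change was -0.33 ± 0.09 (unadjusted p = 0.00633, adjusted p = 0.278 in edgeR), with -0.37 without control replicate 3. In the authors' deposited table Gm22009 had the highest score of any snoRNA, 8.83 where 13 marks the threshold, with a log2 ratio of -0.30.

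The remaining 4 at that level were less abundant or overlapped. Gm24644, a scaRNA in an intron of Fbxo3, was at 0.409, 0.265 and 0.539 CPM in control and at 0.924, 1.16, 0.316, 0.888 and 1.01 CPM in knockout (adjusted p = 0.4 in edgeR). Knockout replicate 3 lay inside the control range. Snord49b had a log2 fold change of 0.68 ± 0.29 (adjusted p = 0.458 in edgeR), Gm23119 one of -0.57 ± 0.23 (adjusted p = 0.452 in edgeR) and Scarna13 one of -0.24 ± 0.10 (adjusted p = 0.453 in edgeR). Gm25791 lies in a run of 8 snoRNA rows on the plus strand of chromosome 9, for which the table used here has no same-strand gene row, and its tested neighbours did not share its non-overlap. Next to it, Gm22620 was at 1.03 ± 1.15 CPM in control and 0.539 ± 0.158 in knockout, Gm24357 at 0.674 ± 0.145 and 0.783 ± 0.137, and Gm23455 at 6.9 ± 1.18 and 7.81 ± 0.521.

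The next members in each direction by p were as follows. Gm22786 had a log2 fold change of 0.78 ± 0.51, Mir1949 of 0.50 ± 0.36 and Gm23455 of 0.18 ± 0.13, with edgeR adjusted p of 0.621, 0.661 and 0.654. Gm22270, in an intron of Rpl5, had -1.15 ± 0.53, Snora31, in an intron of Tpt1, -0.89 ± 0.41 and Gm26130, in an exon of Tcp1, -0.94 ± 0.46, with edgeR adjusted p of 0.492, 0.492 and 0.516. Each of these last 3 had its highest value in control replicate 3, at 4.37, 2.72 and 10.2 CPM. Without that library their log2 fold changes were 0.08, -0.07 and 0.03.

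A host gene row that holds the snoRNA on the same strand was found for 192 of 214 members, in 127 distinct genes, and not for 22. By the exons of any GENCODE M21 transcript of the host, isoforms that keep an intron included, 65 members lie within an exon of the host, 16 overlap one in part and 102 lie in introns; 9 have a host that was not matched to GENCODE. Of the 99 host rows that were tested, 0 passed at an adjusted p of 0.05 and 7 had an unadjusted p under 0.05 (7.07%, where 10.4% of all genes did). Their median log2 fold change was 0.01, so the host rows did not show the lean of the snoRNAs. Relative to the host, the median change of the snoRNA was -0.19 over 146 pairs, and 0.06 without control replicate 3. With all libraries it was -0.17 for 52 exonic, -0.29 for 13 partial and -0.21 for 74 intronic pairs. Where the snoRNA overlaps an exon, the host row may hold the same reads, so the pooled value mixes unlike pairs.

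Where the snoRNA overlaps an exon of the host row, both rows often carried the same signal. Snhg3, the non-coding host of the Snora73 pair, was at 157, 119 and 164 CPM in control and at 122, 107, 139, 155 and 115 CPM in knockout. These values follow Snora73a library by library, and the Snora73a count equals 97.8% of the Snhg3 row in control replicate 3. Without the counts of Snora73a, the Snhg3 row would hold between 2.14 and 3.55 CPM. Snora73b, placed in a Snhg3 intron, was at 83 CPM or more in every library, above that remainder. The row for 2810008D09Rik was at 21.9, 12.3 and 58.6 CPM in control and Gm26083 inside it at 17.1, 8.85 and 54 CPM. The coefficient of variation of the host row over the 8 libraries was 57.2%, and 13.1% after the snoRNA was subtracted.

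Several coding hosts showed the same. Eif4a2, which codes for a translation initiation helicase, was at 274, 221 and 461 CPM in control and at 318, 197, 245, 251 and 234 CPM in knockout. Its 5 members (Snora81, Gm26447, Gm24616, Snord2 and Gm24201) summed to 50, 24.3 and 259 CPM in control, and the excess of control replicate 3 over the mean of the others was 213 CPM in the host row and 213 CPM in the members. Subtracting them took the coefficient of variation from 30.3% to 10.6%. For Timm23, of the mitochondrial import channel, and Gm23946 the excess was 57.6 and 59.5 CPM, and for Rpl10 and Snora70 it was 18.1 and 17. Of 8 hosts whose exonic members had an excess of at least 25% of the host's mean, 6 carried at least 0.5 of it, with a median ratio of 1.00. Of 3 hosts in which a member overlaps an exon in part and none lies within one, 1 did, Timm23; Ncapd2 (Scarna10) and Rpsa (Gm24044) did not.

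Hosts whose intronic snoRNAs had a large excess in control replicate 3 did not carry it. Ipo7 was at 101, 105 and 105 CPM in control and at 123, 116, 134, 110 and 109 in knockout, while Snora23 spanned 12.8 to 271 CPM. Slc25a3 was between 200 and 240 CPM in every library, and Cnot1 was at 127, 126 and 146 CPM in control. Of 13 such hosts with the same minimum excess, 0 carried at least 0.5 of it, with a median ratio of -0.01. Over the 8 libraries the median Pearson r between snoRNA and host was 0.29 for 52 exonic pairs, 0.34 for 13 partial and -0.05 for 74 intronic ones. It was above 0.5 in 17 exonic, 5 partial and 6 intronic pairs, among the last Gm24888 with Rpl27a at 0.87 and Snora73b with Snhg3 at 0.84; the Snhg3 and Rpl27a rows also hold an exonic or partly exonic snoRNA. Whether reads were counted by strand is not given in the sources used here, and Snora78, antisense to Rps2, cannot be told apart from that gene without strand.

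**Figure D5:**
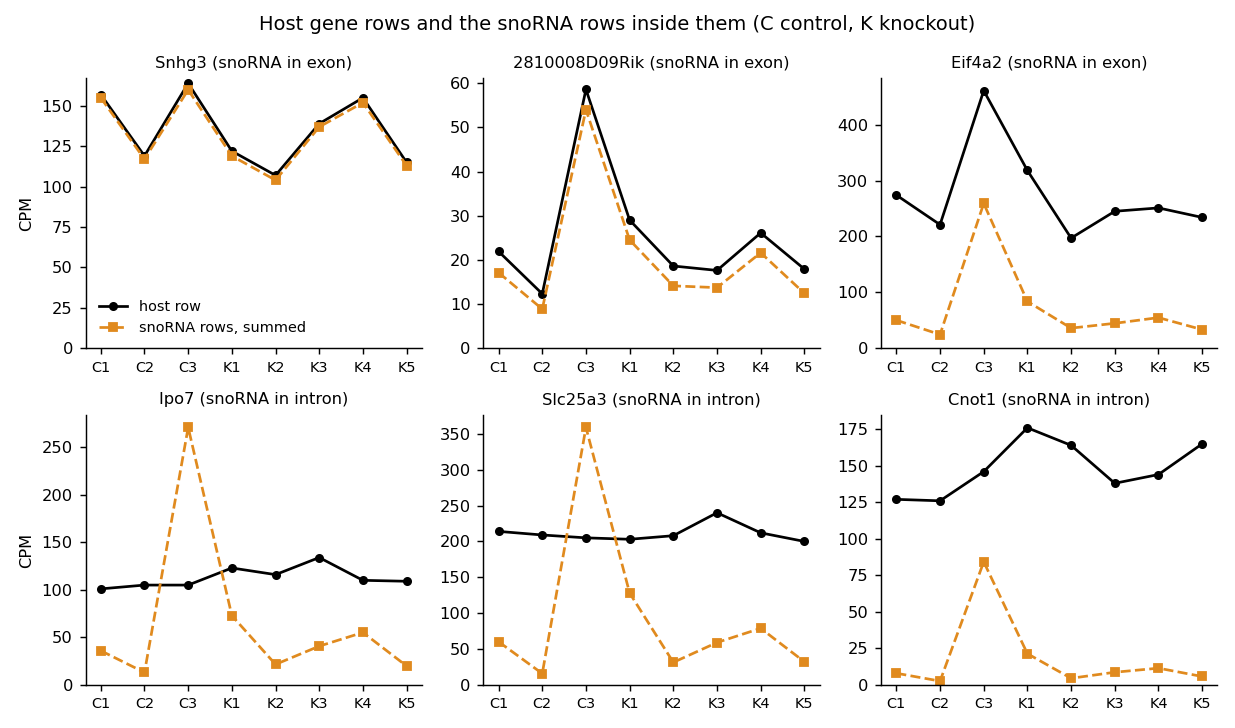
CPM per library (C control, K knockout) of 6 host gene rows (black) and of the snoRNA rows inside them, summed (orange). The Snhg3 panel shows only Snora73a, which overlaps an exon in part, and leaves out the intronic Snora73b. In the upper row, with snoRNAs in exons, both lines peak together, as in Eif4a2 with 461 and 259 CPM in C3, and in the lower row, with intronic snoRNAs, the host stays level while the snoRNA peaks.

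Hosts with several snoRNAs allowed members of the same transcript to be set side by side. Gas5, a non-coding host, holds 9 members, all C/D and all in exons of its row. Gas5 itself was at 48.3, 37.2 and 40.2 CPM in control and at 53.6, 61.5, 42.3, 59 and 36.3 CPM in knockout, with a log2 fold change of 0.27 ± 0.18 (adjusted p = 0.624 in edgeR). Its 8 tested members had log2 fold changes between -0.18 for Gm25789 and 0.24 for Snord47, and their log2 excess in control replicate 3 was at most 0.50. Snord47 was at 0.522, 0.53 and 0.426 CPM in control and at 0.445, 0.698, 0.711, 0.646 and 0.441 in knockout. Gm23436 was at 0.885, 1.06 and 0.879 CPM in control and at 0.821, 0.93, 0.75, 1.33 and 0.599 in knockout. The groups overlapped in both.

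Within Eif4a2 the members differed among themselves. Gm26447, 129 bases long, was at 24.5, 18 and 19.3 CPM in control and at 23.5, 22.7, 22.4, 20 and 15.1 CPM in knockout. That is level across the groups, with a log2 fold change of 0.01 ± 0.16, while Snora81 from the same host row spanned 3.81 to 225 CPM. Snhg1 holds 6 members, of which Snord22, a processing snoRNA, was at 19.3, 10.8 and 28.6 CPM in control and at 24, 17.7, 18.6, 22.8 and 14 CPM in knockout. Its log2 fold change was -0.01 ± 0.28 (adjusted p = 0.995 in edgeR), and its Pearson r with the Snhg1 row was 0.97 over the 8 libraries. Snhg1 was not matched to GENCODE, so whether Snord22 lies in an exon is not known. Reads of Snord22 may be counted in both rows.

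Rpl13a, a ribosomal protein gene whose intronic box C/D snoRNAs have been studied in lipid-induced stress, holds 4 rows. All were under 1 CPM in every library. Snord34 was at 0.295, 0.41 and 0.369 CPM in control and at 0.171, 0.133, 0.237, 0.444 and 0.189 CPM in knockout, with a log2 fold change of -0.63 ± 0.39 (adjusted p = 0.605 in edgeR). Knockout replicate 4 was the highest library of all and the others were below the controls. Snord32a and Snord35a had log2 fold changes of 0.10 ± 0.28 and -0.13 ± 0.39, and Snord33 did not pass the filter. Snora65, in an exon of Rpl12, had -0.85 ± 0.50 (adjusted p = 0.585 in edgeR), with 3.63 CPM in control replicate 3 and 1.61 CPM or less elsewhere.

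The proteins that build and use snoRNAs did not pass the test either. Of the C/D core proteins 4 were tested and 0 called, with a median log2 fold change of -0.20 beside -0.00 over all genes, and Nop56, the scaffold with the smallest p, was at -0.18 ± 0.12 (adjusted p = 0.634 in edgeR). Of the H/ACA core 4 were tested and 0 called, with a median of -0.00, and Nop10 was at -0.03 ± 0.12 (adjusted p = 0.946 in edgeR). Assembly and maturation factors gave 0 of 17, with a median of -0.10, and the co-chaperone subunit Rpap3 at -0.20 ± 0.11 (adjusted p = 0.565 in edgeR). Intron release and trimming enzymes gave 0 of 15, with a median of 0.02, and Papd7, a non-canonical poly(A) polymerase, at 0.22 ± 0.09 (adjusted p = 0.425 in edgeR). RNA polymerase I and rRNA processing factors gave 0 of 27, with a median of -0.04, and Mphosph10, a partner of U3, at -0.30 ± 0.17 (adjusted p = 0.565 in edgeR).

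Known host transcripts gave 0 of 35 with a median of 0.01, and Rpl3, at 0.94 ± 0.53 (adjusted p = 0.566 in edgeR), had the smallest p; its control values were 1.52, 16.1 and 7.4 CPM, and the log2 fold change was 0.45 without control replicate 1 and 1.85 without control replicate 2. Nuclear retained RNAs gave 0 of 7 with a median of -0.14, and Rn7sk, the RNA that holds the elongation factor P-TEFb inactive, was at 8687, 9113 and 9927 CPM in control and between 7256 and 8891 CPM in knockout (adjusted p = 0.594 in edgeR). Papd7 was the 1 gene of these lists at an unadjusted p under 0.05. The lists were chosen with results of these data known.

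Marker lists of other liver cells were read beside these values, and 0 genes of any list passed. Summed levels in control and knockout ran from 331 to 584 and 351 to 652 CPM for Kupffer cells, 244 to 315 and 227 to 305 for sinusoidal endothelium, and 519 to 541 and 475 to 539 for stellate cells. They ran from 3.93 to 5.08 and 4.45 to 6.08 CPM for cholangiocytes, 1.05 to 2.88 and 1.3 to 3.39 for lymphocytes, and 192 to 279 and 91.8 to 371 for erythroid cells. The 3 neutrophil markers summed to between 3.89 and 11.6 CPM in control and between 0.977 and 3.67 in knockout, with 3 of 3 lower at an unadjusted p under 0.05, where 4.68% of all tested genes were. None of the markers was at 0 in all libraries, and their part in any snoRNA value was not tested.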

How the data were processed

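The submitters' processing notes name Novoalign 2.8, build mm10 and DESeq2. The sources used here do not name the program that made the deposited read counts per gene, nor its use of strand. Beside them stand, per the file headers, the authors' FPKM values, a log2 ratio and a score for the adjusted p; the deposited score lies on a -10 log10 scale, and the log2 ratio and FPKM entered no test here. Positions count from 1, after adding 1 to the deposited starts.

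Counts were fitted in R 4.3.3 with edgeR 4.0.16: filterByExpr (min.count 10, min.total.count 15), TMM scaling, group as the only term, glmQLFit and glmQLFTest (two-sided), and Benjamini-Hochberg adjustment over 14664 genes at 0.05. Standard errors were taken as log2 fold change over the square root of F. Log2 CPM used a prior count of 2. Alternatives included DESeq2 1.42.0, limma-voom (limma 3.58.1), other scalings and libraries left out. The script was tested on simulated data.

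Hosts were rows holding a snoRNA on the same strand; exons, names and sequences came from GENCODE M21 (213 of 214 identifiers). A total of 40 snoRNAs have a copy of at least 90% identity among the members and are uncertain. Totals were 43.1, 42.3 and 35.5 M counts (M, mega) in control replicates 1 to 3, and 29, 29.4, 26.1, 24.6 and 31.9 M in knockout replicates 1 to 5. Counts of replicates differed by more than sampling noise (chi-square 28.8 to 79.7 per gene). Named members were the 10 most abundant, the 6 with the smallest p in each direction and a list of known snoRNAs, with their hosts and the 3 hosts of most rows; others were named after their values were seen. The members and lists were chosen with earlier results of these data known.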

Additional observations from a re-analysis of the deposited data

Results flagged for a closer look

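In the 5 knockout libraries, 57 sets of values were checked for a single library far from the rest (gap over 0.71 of the range), and chance alone flags about 1 in 20. There were 3 such values, all in knockout replicate 5. Snord14e reached 1.89 CPM there, where the next highest library was at 1.33. Fbxo3, the host of Gm24644, reached 171 CPM, next to 158. Rpl5, the host of Gm22270, was at 10.6 CPM, below 13.1 in the next lowest library.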

How the results depend on the processing

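No snoRNA was called in either direction under any alternative run, and the summed log2 ratio, the median log2 fold change and the host-relative median moved beyond the within-group SD only without control replicate 3. Over the libraries left out in turn, the median ran from -0.34 to 0.14, the log2 ratio of summed CPM from -0.83 to 0.19, and the host-relative median from -0.35 to 0.06. The snoRNAs at an unadjusted p under 0.05 ran from 1 to 7 higher and from 1 to 45 lower. There were 5 higher and 7 lower with no filter on low counts (2.34% and 3.27% of snoRNAs, against 5.69% and 4.42% of all genes in the same fit) and 8 lower with DESeq2 (3.74%, against 3.91%). There was 1 higher with libraries whose titles begin with 82 (0.543%, against 4.73%) and without knockout replicates 1 and 2 (0.617%, against 3.74%). Titles of all control libraries and of knockout replicates 4 and 5 begin with 82. Those of knockout replicates 1 to 3 begin otherwise, so no control has the other beginning. Replicates 1 to 3 alone with no block, an alternative added after seeing the data, also gave 1 higher (0.617%, against 5.28%). Left out in turn, control replicate 1 gave 1 higher (0.565%, against 3.79%) and 7 lower (3.95%, against 2.75%), and control replicate 2 gave 45 lower (25.3%, against 4.03%). Control replicate 3 gave 7 higher (4.17%, against 7.93%) and 1 lower (0.595%, against 4.18%), knockout replicate 4 gave 6 lower (3.61%, against 4.91%) and knockout replicate 5 gave 1 lower (0.606%, against 4.1%). The cause was not tested.

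Control and knockout libraries with the same replicate number showed little shared deviation (r of deviations 0.0806, 0.0198 and -0.0604). The labels do not say whether the numbers mark pairs, and these values cannot settle it. With the replicate number as a block, 0 snoRNAs were called, 2 were higher (1.23%, against 4.64% of genes) and 4 lower (2.47%, against 4.55%) at an unadjusted p under 0.05, and the median was -0.16.

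Among single genes, the sign of the log2 fold change turned in 98 of the gene and setting pairs, none with a call. Leaving out 1 library at a time gave ranges of -0.08 to 0.11 (2410006H16Rik), -0.08 to 0.06 (Atg16l1), -0.05 to 0.11 (Cep295), -0.56 to 0.02 (Eif4a2), -0.01 to 0.05 (Fbxo3), -1.55 to 0.08 (Gm22270), -1.67 to 0.80 (Gm24119), -1.07 to 0.28 (Gm25395), -1.36 to 0.03 (Gm26130), -0.10 to 0.12 (Kpna4), -0.03 to 0.13 (Ncapd2), -1.15 to 0.66 (Rnu3a), -0.05 to 0.07 (Rpl5), -0.63 to 0.22 (Scarna6), -0.55 to 0.03 (Scarna9), -0.02 to 0.05 (Slc25a3), -0.29 to 0.21 (Snhg1), -0.12 to 0.18 (Snhg4), -1.88 to 0.79 (Snora23), -1.17 to 0.14 (Snora65), -0.22 to 0.01 (Snora73b), -0.90 to 0.34 (Snora74a), -0.21 to 0.08 (Snord104), -1.40 to 0.40 (Snord118), -0.24 to 0.04 (Snord13), -0.18 to 0.24 (Snord14c), -1.15 to 0.62 (Snord17), -0.10 to 0.26 (Snord32a), -0.28 to 0.11 (Snord35a), -0.13 to 0.00 (Snx5). With DESeq2 size factors the value was 0.00 for Snord14c. With no filter the value was 0.00 for Snord14c. With the DESeq2 test the value was 0.00 for Snord14c. With limma-voom the value was -0.01 for Rpl5. With titles beginning with 82 values were 0.04 for Scarna2, 0.12 for Snord104, 0.14 for Snord13, 0.20 for Snord14c, -0.02 for Slc25a3, -0.04 for 2410006H16Rik, -0.07 for Rpl5 and -0.01 for Cep295. Without knockout replicates 1 and 2 values were 0.01 for Scarna2, 0.05 for Snord104, 0.02 for Snord13, -0.06 for Snord32a, 0.08 for Snord35a, 0.19 for Snord14c, -0.02 for Ncapd2, -0.02 for Rpl5 and -0.10 for Cep295. With a gene length offset values were -0.00 for Slc25a3, 0.05 for Snhg4, -0.04 for Fbxo3, -0.07 for Kpna4 and -0.09 for Cep295. Thinned to the smallest library total, values were -0.07 for Snord14e, -0.04 for Snord32a and 0.04 for Snord14c. With the block values were -0.01 for Snord14e, 0.07 for Scarna9, 0.11 for Snhg4, -0.02 for Fbxo3 and -0.03 for Kpna4. With the block and the length offset values were -0.02 for Snord14e, 0.03 for Scarna9, 0.20 for Snhg4, -0.07 for Fbxo3, -0.11 for Kpna4, -0.08 for Cep295 and 0.04 for Snhg1. With replicates 1 to 3 and no block values were -0.01 for Snord14e, 0.10 for Snhg4, -0.02 for Fbxo3 and -0.04 for Kpna4. Low depth limits the 125 rows under 1 CPM.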
